A study of Mus musculus with 7 samples.

Results

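Bcl11b and 8 genes that follow it on mouse chromosome 12, Setd3, Ccnk, Hhipl1, Cyp46a1, Evl, Yy1, Wars and Wdr25, were examined in D3 mouse embryonic stem cells with and without calreticulin. The genes were chosen by the measured difference itself, Bcl11b being higher and the neighbours lower in the knockout arrays, so their knockout minus wild type differences are given as a description and carry no test. Every probe set with 1 of these symbols in the platform annotation was taken, which gave 22 of 45037 probe sets and 9 of 18193 genes. D3 is an established embryonic stem cell line. There were 2 wild type and 5 calreticulin knockout libraries, each made from total RNA of pooled cultures and hybridised to its own Affymetrix whole-genome mouse array. In the knockout cells Calr was deleted, the gene for calreticulin, which binds calcium and helps glycoproteins fold in the endoplasmic reticulum. The labels describe each library as a separate biological replicate and do not say how many knockout clones were used, so the spread measured is that between these libraries.

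Neighbouring genes on a chromosome can share open chromatin, enhancers or a promoter region, and genes that face away from each other can start from one stretch of DNA. Bcl11b encodes a zinc finger repressor best known for committing early T cells and for shaping cortical neurons, and it acts with the NuRD and BAF chromatin complexes. The genes beside it have varied roles. Yy1 encodes a zinc finger factor that binds many promoters, Ccnk the cyclin of kinases that phosphorylate RNA polymerase II, Setd3 the methyltransferase of actin, and Evl an Ena/VASP protein that extends actin filaments. Wars encodes cytosolic tryptophanyl-tRNA synthetase and Cyp46a1 the enzyme that turns cholesterol into 24-hydroxycholesterol in neurons. Hhipl1 encodes a relative of the Hedgehog-interacting protein, and Wdr25 a WD-repeat protein.

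The deleted gene checked the labels: Calr signal averaged 11650 ± 1146 (SD, n = 2) with calreticulin and 912 ± 205 (SD, n = 5) without it; where its probes lie against the deletion was not analysed here. One pair of arrays, knockout libraries 2 and 3, was unlike the other 5: these correlated with each other at r = 0.985 across probe sets and with the others at 0.843 to 0.902, while the others correlated at 0.920 to 0.972. Their 3' to 5' log2 ratios for Actb were 0.79 and 0.89 (1.46 to 2.08 in the others). Those for Gapdh were -0.31 and -0.27, close to the -0.17 of knockout library 1. For Gapdh wild type library 2, at 0.77, and knockout library 4, at 1.32, were the highest. The Lys poly-A spike-in signals of knockout libraries 2 and 3 were 15165 and 13155 (6749 to 8508 in the others). Each result is therefore also given without them where that matters. All 10 embryonic stem cell markers listed, among them Pou5f1, Nanog, Sox2 and Zfp42, were past the signal filter. So were 13120 of all 18193 genes and 11 of the 12 fibroblast and feeder markers, so passing it does not by itself identify the cells. The summed signal of the 10 was 83531 and 98323 in wild type and 80380 to 112543 in knockout libraries. Dppa5a weighs most in this sum, so it says little about single markers. Pou5f1 read 11726 and 10184 in wild type libraries. It read 4891 and 4687 in knockout libraries 2 and 3 and 8770 to 11549 in the other 3. Nanog, Esrrb and Utf1 were also lowest in that pair, whereas Tdgf1 and Fgf4 were highest in it. The 12 fibroblast and feeder markers summed to 5409 and 4633 in wild type libraries. They reached 8335 and 7800 in knockout libraries 2 and 3 but only 1753 to 3099 in the other 3. Acta2 weighs most in these sums, at 3802.3 and 3067.5 in wild type libraries. It read 2474 and 2344 in knockout libraries 2 and 3, below wild type, and 895.4 to 1892.5 in the other 3.

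Bcl11b was the 1 gene of the group with higher signals in the knockout cells. Its brightest probe set had signals of 135 and 78.2 in wild type libraries, and of 506, 723, 775, 534 and 694 in knockout libraries 1 to 5. Every knockout library lay far above both wild type libraries, whose values lay near their array medians of 106 and 92.4. The means were 107 ± 40.4 (SD, n = 2) and 646 ± 119 (SD, n = 5), a 6.05-fold ratio. On the scale log2(signal + 20.2), where 20.2 is a pseudocount that damps noise at low signals, the difference was 2.41 (SE 0.30). Without knockout libraries 2 and 3 it was 2.26, so the higher Bcl11b signal did not depend on the pair of libraries that was unlike the others. In bulk RNA a larger share of cells with Bcl11b and more Bcl11b RNA per cell cannot be told apart.

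The other 3 Bcl11b probe sets, whose places in the gene were not analysed here, were higher as well but by less, with differences of 1.2 to 1.85. Probe set 1450339_a_at stood at 55.5 and 14.8 in wild type and at 239, 195, 106, 138 and 181 in the knockout libraries. Probe set 1438784_at rested at 44.5 and 54.2 against 102 to 196, and 1452966_at at 61.9 and 55.2 against 109 to 199. All 4 of 4 probe sets thus separated the groups with the knockout higher, as did 6.72% of all probe sets on the array. Since the gene was chosen for this pattern, nothing is read from that count. Wild type values of the dimmer 3 were at or below 61.9, under the signal of 64.8 at which the filter on dim probe sets lay.

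The promoter windows of Bcl11b, Setd3, Ccnk and Evl are shown because Bcl11b differed in the opposite direction to the others and because the Setd3 and Ccnk windows overlap. Each runs from 250 bases before to 50 bases after a gene start, as annotated by RefSeq on GRCm38.p6. Capitals mark matches, on either strand, to the YY1 core AANATGGC, the GC box GGGCGG and the CCAAT box CCAAT.
Bcl11b, chr12:108003365-108003664, minus strand: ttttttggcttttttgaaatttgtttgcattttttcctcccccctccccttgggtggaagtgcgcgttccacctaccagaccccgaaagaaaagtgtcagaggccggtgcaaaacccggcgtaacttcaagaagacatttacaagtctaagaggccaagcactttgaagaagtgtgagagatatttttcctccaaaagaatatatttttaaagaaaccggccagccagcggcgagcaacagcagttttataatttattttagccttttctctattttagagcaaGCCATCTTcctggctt
Setd3, chr12:108179235-108179534, minus strand: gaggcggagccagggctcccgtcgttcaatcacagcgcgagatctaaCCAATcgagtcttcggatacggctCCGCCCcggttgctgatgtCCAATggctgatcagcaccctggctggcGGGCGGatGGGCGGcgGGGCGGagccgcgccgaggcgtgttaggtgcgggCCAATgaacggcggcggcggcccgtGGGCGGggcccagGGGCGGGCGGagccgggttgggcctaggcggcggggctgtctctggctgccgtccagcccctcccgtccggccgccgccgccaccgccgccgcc
Ccnk, chr12:108179488-108179787, plus strand: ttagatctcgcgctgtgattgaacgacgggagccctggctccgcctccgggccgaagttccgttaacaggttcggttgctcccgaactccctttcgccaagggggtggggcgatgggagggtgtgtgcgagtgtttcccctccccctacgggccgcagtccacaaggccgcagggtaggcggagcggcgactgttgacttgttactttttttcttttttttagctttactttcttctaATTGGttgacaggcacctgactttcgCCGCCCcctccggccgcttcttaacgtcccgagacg
Evl, chr12:108554470-108554769, plus strand: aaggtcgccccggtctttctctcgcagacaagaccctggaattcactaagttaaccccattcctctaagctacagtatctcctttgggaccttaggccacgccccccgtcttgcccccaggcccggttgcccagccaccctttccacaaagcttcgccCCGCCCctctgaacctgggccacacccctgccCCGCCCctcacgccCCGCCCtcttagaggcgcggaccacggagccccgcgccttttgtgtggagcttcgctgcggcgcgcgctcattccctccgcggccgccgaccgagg

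Of the 9 genes, 7 had at least 1 window in the table, with 9 windows in all, and Wars and Wdr25 had none. The Bcl11b window was the poorest in G and C, at 43% with 9 CpG dinucleotides, against a median of 52.7% and 7 over all 32851 windows. Setd3 (74.7% in the window shown), Cyp46a1 (70.3%) and Yy1 (81%) lay well above that median, with 31 to 42 CpG dinucleotides in their windows. Ccnk (58.7%), Hhipl1 (63.7%) and the Evl window shown (66.3%) were above it by less. A second Evl window, not shown, was below it at 51.3%, with 4 CpG dinucleotides and no match to the motifs searched. The Setd3 and Ccnk windows lie on opposite strands and share 47 bases, so both genes start from one stretch of DNA, pointing away from each other. GC boxes were found in 6 of the 9 windows (35.7% of all windows hold one) and CCAAT boxes in 5 (37.4%). Both counts include 2 Setd3 windows that largely overlap and hold the same boxes. Bcl11b had neither. Its window held the only YY1 core among them, at bases 285 to 292 and hence after the annotated start, a match present in 6.05% of all windows. The BCL11 core TGACCA (13.6% of all windows), the ATF4 response element TGATGNAA (3.97%) and the ER stress element (0.119%) were in none of the 9. A match of letters is no evidence of binding.

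All 8 neighbours had a lower mean in the knockout cells with their brightest probe set, with differences from -1.30 for Setd3 to -0.38 for Hhipl1 and a median of -1.07. The median over all 18193 genes was -0.01. For 7 of the 8 every knockout library lay below both wild type libraries, the exception being Hhipl1. Over all genes past the filter 7.44% separated in this direction, and as the neighbours were chosen for being lower, nothing is read from their share. Relative to the wild type mean, the median of the 8 genes stood at 0.07 and -0.07 in wild type libraries. Knockout libraries 1, 4 and 5 stood at -0.75, -0.67 and -0.70, and knockout libraries 2 and 3 lower still, at -1.29 and -1.31. The median without the latter pair was -0.70. The plot of signals by array shows the 9 genes one by one.

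**Figure D1:**
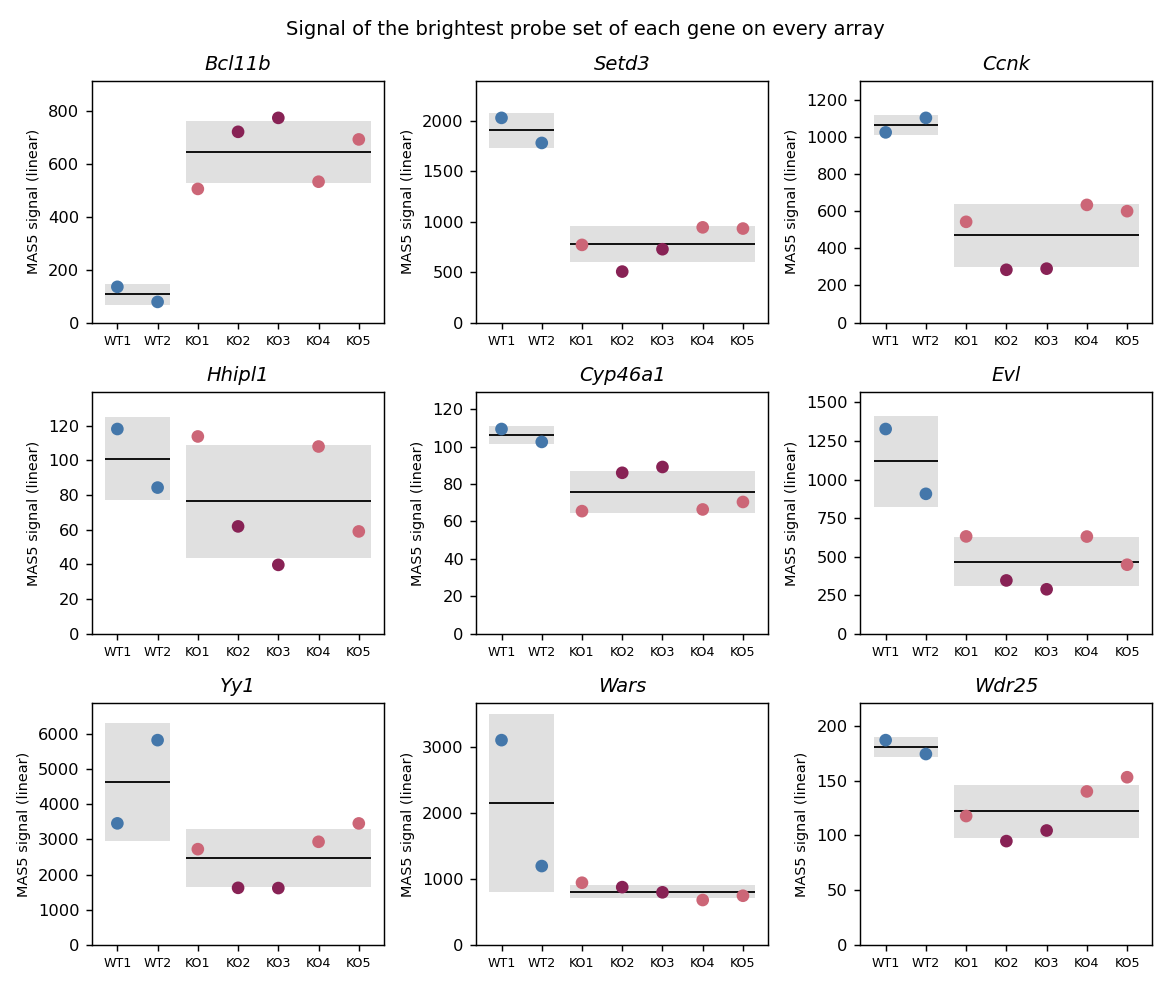
Deposited MAS5 signal (linear axis from 0) of the brightest probe set of each of the 9 genes on 2 wild type (blue) and 5 knockout arrays (red, with knockout libraries 2 and 3 darker). Lines are group means and grey bands 1 SD either side. Bcl11b is higher in all 5 knockout arrays, 7 genes are lower in all 5, and Hhipl1 overlaps.

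Of the genes with a role in transcription, Yy1 is the other zinc finger factor. Its brightest probe set had signals of 3457 and 5825 in wild type cells, while knockout libraries 1 to 5 read 2722, 1622, 1615, 2933 and 3455. The groups separated by the narrowest possible margin, since knockout library 5 lay at 3455 and wild type library 1 at 3457. The means were 4641 ± 1675 and 2469 ± 822, a difference of -0.92 (SE 0.38). Its size rested on single libraries: leaving out wild type library 1 gave -1.30, leaving out wild type library 2 gave -0.55, and leaving out knockout libraries 2 and 3 gave -0.57. Probe sets 1422570_at and 1435824_at, at -0.70 each, had all knockout libraries below both wild type ones. The latter read 966 and 1535 in wild type against 588 to 866 in the knockout. The fourth Yy1 probe set overlapped, at 177 and 199 against 75.4 to 231.

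Ccnk, measured by 1 probe set, had signals of 1025 and 1104 in wild type libraries. In knockout libraries 1 to 5 it had 543, 285, 291, 634 and 601. Every knockout library lay below both wild type libraries, and the lowest were knockout libraries 2 and 3. The difference was -1.22 (SE 0.38), or -0.83 without that pair. 

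Setd3, whose window overlaps that of Ccnk, gave 2028 and 1779 in wild type cells with its brightest probe set, against 769, 505, 726, 943 and 931 without calreticulin. The knockout mean was 40.7% of the wild type mean, with a difference of -1.30 (SE 0.31) and of -1.10 without knockout libraries 2 and 3. Its dimmer probe set did not separate the groups: 178 and 206 in wild type against 118 to 188 in knockout libraries, a difference of -0.35. With their brightest probe sets both genes of the head-to-head pair were lower in every knockout library. Ccnk lay at -1.83 to -0.73 and Setd3 at -1.87 to -0.99 from the wild type mean on the log2 scale. Both were chosen for being lower, so nothing about a shared promoter region is read from this.

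Evl, the second gene of the group that acts on actin, was read by 4 probe sets that did not give one answer. The brightest read 1328 and 907 in wild type cells against 631, 345, 288, 630 and 448, a difference of -1.26 (SE 0.37). Probe set 1450106_a_at gave nearly the same picture, with 515 and 340 against 236, 111, 130, 277 and 181, a difference of -1.15. Both had their lowest values in knockout libraries 2 and 3 and separated the groups also without them (-0.94 and -0.82). By contrast, 1440885_at was close to level, at 226 and 203 against 173 to 228 (-0.11), and 1458889_at, the only member probe set under the filter, ran from 10.1 to 54.3 in knockout libraries around wild type values of 39.4 and 42.2. The first 2 carry the suffix that Affymetrix gives to sets matching several transcripts of a gene; where the others lie in Evl was not analysed here.

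Wars differed from the genes above in where the spread lay. Its brightest probe set had 3098 in wild type library 1 but 1192 in wild type library 2, whereas the 5 knockout libraries were close together at 940, 873, 795, 678 and 743. The knockout values were all below the lower wild type value. The difference of -1.24 (SE 0.37) became -0.56 when wild type library 1 was left out and -1.93 when it was wild type library 2. Probe sets 1437832_x_at and 1425106_a_at, at -1.25 each, also separated the groups, and 1415694_at did not: knockout libraries 2 and 3, at 460 and 427, exceeded wild type library 2 at 419. Knockout libraries 2 and 3 did not stand apart here, with a mean of 834 against 787 for the other 3. The brightest probe set carries the suffix for probes that may match other sequences too.

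Cyp46a1 and Wdr25 were dim and moved less. Cyp46a1 read 109 and 103 in wild type libraries and 65.5, 86.0, 89.1, 66.4 and 70.4 without calreticulin, a difference of -0.41 (SE 0.25). All 5 knockout values were lower, and here knockout libraries 2 and 3 lay nearest to wild type. Wdr25 read 187 and 174 against 118, 94.8, 105, 140 and 153, a difference of -0.51 (SE 0.26). Hhipl1 was the neighbour that did not separate: 118 and 84.3 in wild type, and 114, 61.9, 39.7, 108 and 59.0 in the knockout. Its difference was -0.38 (SE 0.36). It became -0.18 when wild type library 1 was left out, -0.58 for wild type library 2, -0.23 for knockout library 3 and -0.12 for the pair of knockout libraries 2 and 3. The linear signals of Cyp46a1, Hhipl1 and Wdr25 lay within a few-fold of the array medians of 92.4 to 125, and the table holds no detection calls.

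Over all 22 probe sets, the 4 of Bcl11b were higher and the 18 of the neighbours had negative differences. Of those 18, 12 had every knockout library below both wild type libraries, beside 5.46% of all 45037 probe sets. The 6 that overlapped were those of Hhipl1, the dimmer set of Setd3, 2 of Evl and 1 each of Yy1 and Wars. Without knockout libraries 2 and 3, 16 of the 18 separated (9.58% of all probe sets did so with 3 knockout libraries). In 6 of the 8 neighbours the mean of knockout libraries 2 and 3 was below that of the other 3 knockout libraries, the exceptions being Cyp46a1 and Wars. The summed fibroblast markers and the 3' to 5' ratio of Actb moved with the same pair of libraries, and their part in these values was not tested.

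**Figure D2:**
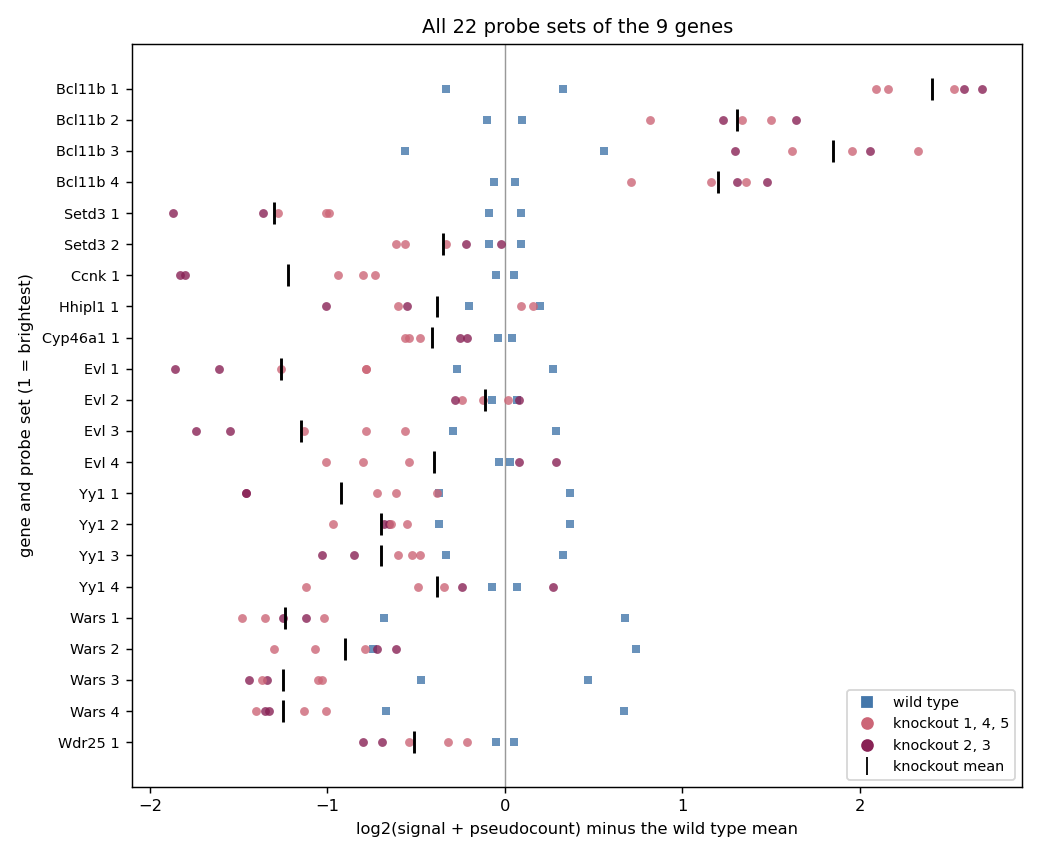
Log2(signal + 20.2) of every array minus the wild type mean for all 22 probe sets, numbered from the brightest within each gene. Squares are wild type and circles knockout arrays, with knockout libraries 2 and 3 darker, and bars are knockout means: the 4 Bcl11b sets lie to the right (1.2 to 2.41) and the 18 others to the left of 0 (-1.30 to -0.11).

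The stretch from Bcl11b to Wdr25 holds 14 protein-coding genes in the RefSeq table, 5 of which are no members, and 4 of those 5 were measured. As the members were picked for being lower, these remaining genes are largely those that were not, and nothing is read from the contrast. Slc25a29, which encodes a mitochondrial carrier of basic amino acids and lies directly after Yy1, read 390 and 204 in wild type and 233 to 360 in knockout libraries (-0.05, limma adjusted p = 0.954), and its other 4 probe sets overlapped too. Slc25a47, a carrier gene between Slc25a29 and Wars, read 179 and 99.2 against 97.6 to 163 (0.05, adjusted p = 0.954). Degs2, a sphingolipid desaturase gene between Evl and Yy1, was under the filter at 14.5 and 42.3 against 19.9 to 85.3 (0.65). Eml1, a microtubule-associated protein gene between Cyp46a1 and Evl, was under it as well, at 43.1 and 45.3 against 5.5 to 35.8, lower in all 5 knockout libraries (-0.67). A non-coding gene, Gm33628, stood at 36.7 and 51.8 against 33.5 to 74.7 (0.15).

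Beyond the stretch, none of the 10 measured genes before Bcl11b separated the groups, and their median difference was -0.06. Among them Vrk1, which encodes a nuclear kinase, read 1647 and 1577 against 1081 to 1852 (-0.14, limma adjusted p = 0.865). Of the 10 measured genes after Wdr25, 2 were lower in all 5 knockout libraries, Rian (-0.92) and Mirg (-1.07), both non-coding RNA genes of the imprinted Dlk1 and Meg3 cluster (adjusted p = 0.589 for each). In that cluster Meg3 stood at -1.95 (adjusted p = 0.589), with overlapping groups. Dlk1 stood at -1.13 (limma adjusted p = 0.642) and overlapped through knockout libraries 2 and 3, at 680 and 780, against 685 and 375 in wild type and 81.1 to 102 in the other 3. Without that pair its difference was -2.21 and the groups separated. Past it, Ppp2r5c (0.04) and Dync1h1 (0.34) were not lower. Over the 624 measured genes of chromosome 12 the median was 0.04, with 50 lower and 43 higher in all knockout libraries (6.82% and 5.86% of all 18193 genes separated in these directions).

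**Figure D3:**
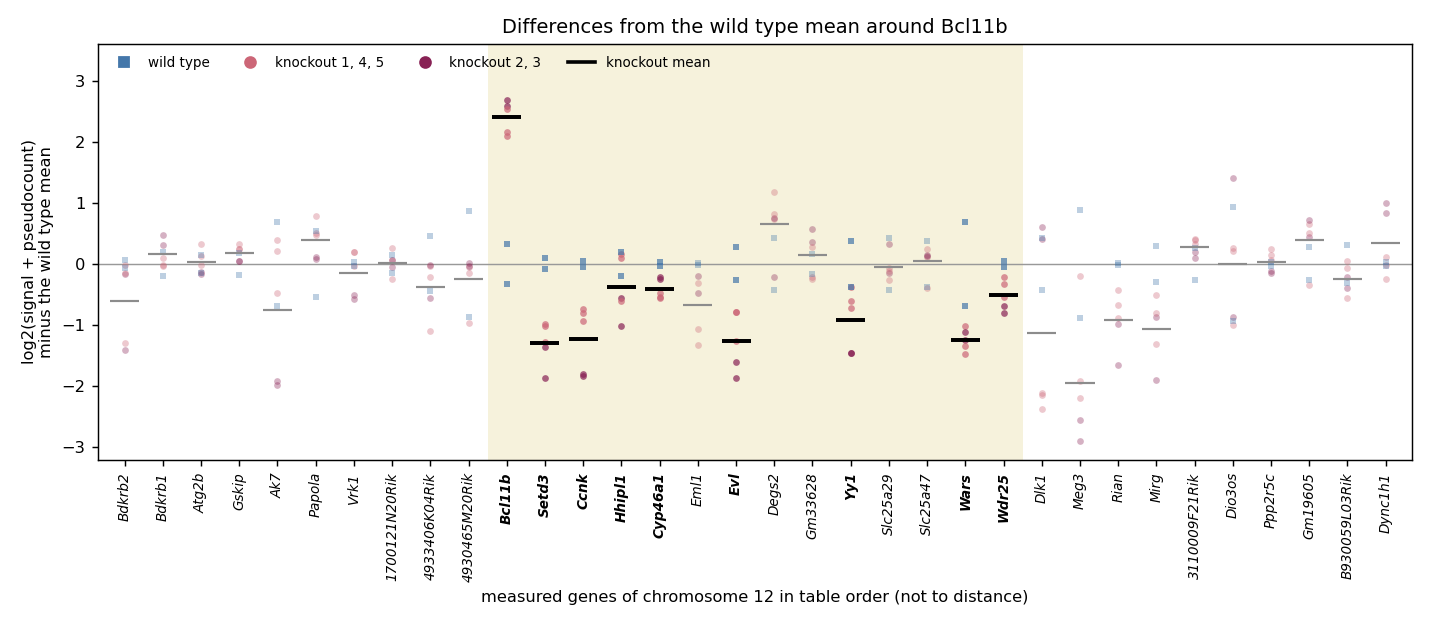
Log2(signal + 20.2) minus the wild type mean for 34 measured genes of chromosome 12 in table order, with the stretch from Bcl11b to Wdr25 shaded and the 9 genes in bold; spacing does not show distance. Squares are wild type arrays, circles knockout arrays and bars knockout means: Bcl11b stands at 2.41 and its 8 lower neighbours at -1.30 to -0.38. Of the other genes among them, Slc25a29 and Slc25a47 lie near 0, Eml1 at -0.67, Degs2 at 0.65 and Gm33628 at 0.15.

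Genes whose profile over the 7 arrays was most like that of Bcl11b lay on other chromosomes. Likeness was the root mean square difference between log2 values, each gene centred on its own mean. Nearest was Efhc2 on the X chromosome (0.45), with 23.9 and 50.1 in wild type and 132 to 314 in knockout libraries. Srr, the serine racemase gene (0.469), Mospd2 (0.503), Sorcs2 (0.512) and Rabgap1l (0.542) followed, with differences of 1.33 to 1.95. Wild type values of Efhc2 and Sorcs2 were under the filter limit of 64.8. None of the neighbours had another member as its nearest gene. The nearest was Pip4k2b for Ccnk (0.109), Thumpd1 for Setd3 (0.166), Mrps34 for Evl (0.106) and Dab2 for Yy1 (0.136). It was Cdh5 for Wars (0.180), Ccdc92 for Hhipl1 (0.129), Dgkeos for Cyp46a1 (0.08) and Rad1 for Wdr25 (0.088). These profiles hold the differences by which the members were chosen, and each search ran over all genes past the filter. Nothing is therefore read from which gene came nearest.

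Genes that act with the members were not used to choose them and were tested. In 9 lists of such partners, 116 of 131 genes were past the filter and 0 passed limma's adjusted threshold (0.05), beside 2 of all 13120 genes (0.0152%). At an unadjusted p under 0.05 there were 6 partner genes, 2 higher and 4 lower, or 5.17% of those tested against 8.06% of all genes. A further list, the imprinted cluster, holds genes that lie next to the members and do not act with them. Of its 4 tested genes 0 passed the adjusted threshold and 3 had an unadjusted p under 0.05, all lower. The lowest adjusted p was 0.589 in both. With 2 wild type arrays, moderate and also large changes could go undetected. Meg3, at -1.95, had a limma adjusted p of 0.589. The count of 0 therefore says little about whether the partners changed.

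Bcl11a, the paralogue of Bcl11b, read 448 ± 77.2 in wild type and 213 ± 147 in knockout libraries (-1.28, limma adjusted p = 0.589), with 53.5 and 89.8 in knockout libraries 2 and 3. In its list of NuRD and corepressor partners, 3 of 19 had a positive difference and the median was -0.38, or -0.18 without knockout libraries 2 and 3. Rbbp4, a histone-binding subunit, stood at -0.68 (adjusted p = 0.589), Rbbp7 at -0.09 (0.875) and the deacetylase gene Sirt1 at 0.80 (0.593). The BAF complex had a median of -0.15, or -0.03 without that pair, and 8 of 22 were positive, with Smarcd1 at -0.92 (0.589), Actl6a at -0.25 (0.706) and Ss18 at 0.02 (0.977). Neither list had a member past the adjusted threshold.

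For Yy1, the list of relatives and INO80 subunits had a median of -0.15 with 6 of 18 positive, and of -0.06 without knockout libraries 2 and 3. Zfp42, a relative of Yy1 and a stem cell marker, was at 12691 ± 4222 and 12634 ± 3052 (limma adjusted p = 0.998). The Polycomb-related gene Sfmbt2 stood at 0.96 (0.589), Ring1 at -1.17 (0.590) and the helicase gene Ruvbl2 at -0.78 (0.589). The list of cyclin K kinases and elongation factors had a median of -0.29 with 3 of 11 positive, but -0.13 without knockout libraries 2 and 3. In it Polr2a, for the large subunit of RNA polymerase II, was at -0.92 (0.6001), Supt6 at -0.82 (0.589), Supt5 at -0.48 (0.601) and Aff4 at -0.20 (0.838).

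Among actin genes, the 6 of the SETD3 substrate list had a median of -0.29 with 1 positive, and of -0.06 without knockout libraries 2 and 3. Actb was at 13296 ± 3639 and 13323 ± 3721 (-0.01, limma adjusted p = 0.993) and Actg1 at -0.48 (0.605), while Acta2, a smooth muscle actin, was at -1.10 (0.589) and Actc1 at -0.74 (0.589). The Ena/VASP list was centred at 0.03, with 6 of 11 positive, and at -0.14 without that pair. Enah, the paralogue of Evl, stood at 0.36 (0.596), Sptan1 at 0.12 (0.873), Zyx at -1.03 (0.589) and profilin 1, Pfn1, at -1.14 (0.596). The list of cytosolic tRNA synthetases other than Wars, which also holds the mitochondrial Wars2, had a median of -0.05 with 6 of 19 positive (-0.10 without the pair). Kars was at -0.62 (0.589), Rars at -0.56 (0.589), Aars at -0.31 (0.750) and Gars at -0.03 (0.974).

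The oxysterol list was higher by a median of 0.61 with 8 of 10 positive, and stood at 0.07 without knockout libraries 2 and 3. Apoe, which carries cholesterol, read 16582 and 18144 in that pair against 3038 ± 887 in wild type libraries (1.08, limma adjusted p = 0.629), Cyp27a1 was at 1.0 (0.589) and Abca1 at 0.26 (0.851). The Hedgehog list behaved alike, with a median of 0.39, 8 of 10 positive, and 0.01 without the pair. Ptch1, the Hedgehog receptor, was at 1.0 (0.597), Cdon at 0.72 (0.589) and Gli2 at 0.26 (0.752). In both lists the higher median thus lay in the libraries that also had higher fibroblast markers, whose part was not tested. The imprinted cluster list had 4 measured genes, 0 positive, and a median of -1.10.

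**Figure D4:**
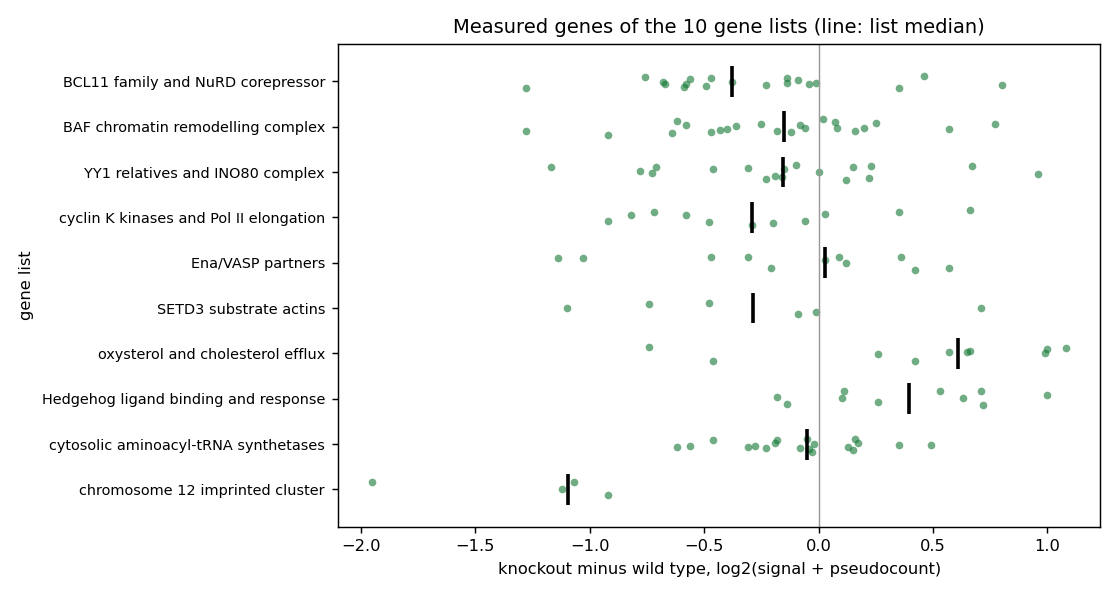
Knockout minus wild type difference on the log2(signal + 20.2) scale for each measured gene of the 9 partner lists and the imprinted cluster (dots, spread vertically at random for legibility), with list medians as bars. Medians run from -1.10 for the imprinted cluster to 0.61 for oxysterol genes, and none of the genes passed the adjusted threshold.

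Markers of T cells and neurons, in which Bcl11b is best known, did not separate the groups by their summed signal. Of 14 T cell markers 12 were measured and 9 of these were under the filter; none was listed at 0. Their summed signal was 735 and 1213 in wild type and 796 to 1356 in knockout libraries, which overlapped. Zap70 and Cd8a, the brightest on average, weigh most in this sum, so it says little about the other markers. Zap70 alone read 120 and 588 in wild type and 94.3 to 779 in knockout libraries. Cd3e was at 38.9 ± 16.5 and 28.9 ± 5.24, Cd3d at 12 ± 7.92 and 5.30 ± 1.54, and Cd4 at 16.2 ± 5.66 and 27.5 ± 5.0. Il7r, under the filter like these, was at 33.9 ± 7.5 and 65.1 ± 12.3. It was the 1 T cell marker of the 12 measured with all knockout libraries higher, beside 5.86% of all 18193 genes. Nothing is read from that 1 gene. The 10 neuron markers summed to 10950 and 7093 in wild type and 6980 to 9927 in knockout libraries. Most of this was Stmn2, at 6601 and 4056 in wild type and 5303 to 8432 in knockout libraries, so the sum mainly follows that gene. The median difference of the 10 markers was 0.22, with 7 of 10 positive, but 0.06 without knockout libraries 2 and 3. Among the positive ones were Map2 at 0.49 (limma adjusted p = 0.652) and Dcx at 0.48 (0.619). Without that pair Map2 stood at 0.14 and Dcx at 0.59. Against this, Nefl, a neurofilament gene (-2.24), and Tubb3 (-1.24) were lower in all 5 knockout libraries (limma adjusted p = 0.589 for each). These were 2 of the 10, beside 6.82% of all 18193 genes, and were picked after their values were seen.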

How the data were processed

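The authors deposited linear array intensities, 1 for each probe set in each library. The submitters' processing notes name MAS5; its version and detection calls are not given in the sources used here. Array medians over probe sets other than controls ran from 92.4 to 124.7 and no further normalization was applied. Signals were taken as log2(signal + 20.2), 20.2 being the 20th percentile of all values, so folds of dim probe sets are understated. The 64 controls among 45101 probe sets were set aside; 34958 had 1 symbol, 932 several, and 34754 were matched to RefSeq genes (GRCm38.p6) by gene identifier. That table gave gene order only, since the array data name no build; the coordinates printed are those of the RefSeq promoter windows. The brightest probe set stood for its gene. Genes brighter on average than the 40th percentile (13120) were fitted with limma 3.58.1 in R 4.3.3 (eBayes with trend, two-sided, Benjamini-Hochberg adjusted); the fit was tested on simulated data. The number of arrays limits precision.

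The members, lists and alternatives were chosen with earlier results of these data known. Named were all members with their probe sets, the other genes of the stretch, and from each partner list the called genes or, with none called, the 2 largest differences and 2 brightest genes; Calr and Bcl11a were always named. Vrk1, Ppp2r5c, Dync1h1, Il7r, Nefl, Tubb3, Rian, Mirg and the examples of markers were chosen after their values were seen. Figures were drawn with matplotlib 3.10.9.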

Additional observations from a re-analysis of the deposited data

How the results depend on the processing

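No alternative turned the direction of Bcl11b or of the 8 neighbours' median, but the genes were chosen for that direction, and changing the filter or the trend cannot alter a difference of means. Averaging all probe sets of a gene gave 1.69 for Bcl11b and -0.70 for the neighbours' median. Without knockout libraries 2 and 3 the latter was also -0.70. Leaving out single libraries gave 2.08 to 2.74 for Bcl11b (lowest without wild type library 2, highest without wild type library 1) and -1.14 to -0.78 for the median. Centring on array medians shifted the median of all tested genes by -0.12 and gave 2.29 and -1.19. Single neighbours kept their sign throughout; with probe sets averaged, Setd3 was at -0.83 and Evl at -0.73.

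The count of genes called, 2 (Calr and Mid1), was 1 (Calr) without a filter, with the filter at the 60th percentile, with probe sets averaged and without knockout libraries 2 and 3. It was 3 with centring on array medians and with a pseudocount of 1, the added gene being Bcl11b, for which a call is no evidence as it was chosen on this contrast. Over single left-out libraries it ran from 0 to 2 (limma; 0 without wild type library 2, where 1973 genes had an unadjusted p under 0.05). A lone wild type library was assumed to vary like the knockout group. Over all 10 lists 0 genes were called in these settings. With the replicate number as a block, 42 genes were called, 1 of them in the lists (Meg3, of the imprinted cluster), and Bcl11b stood at 2.34 and the median at -1.08. That fit has 1 residual degree of freedom, and the labels do not say that equal numbers mark shared cultures. The number of arrays limits all values.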
